A study of Homo sapiens with 36 samples.

Results

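The genes described here were 8 receptors and co-receptors of innate immunity, TLR1, TLR2, TLR3, TLR4, TLR5, TLR6, LY96 and CD14, out of 63677 genes listed in the count tables. They were chosen by name, by matching Ensembl identifiers to symbols, and because TLR4 had been seen to be higher late after IL-1β withdrawal. The course of TLR4, and the values of all 8 genes after withdrawal, are therefore given as a description without a test. RNA was sequenced from A549, an established human lung adenocarcinoma line labelled as non-small cell lung cancer. Cells were grown in RPMI medium with 10% serum, either with IL-1β at 1 ng/ml or without it as controls, and were passaged every 3 to 4 days. Both arms were sampled on exposure days 6, 15 and 21. They were sampled again 6, 15 and 30 days after withdrawal, which followed 21 days of IL-1β. Each of the 12 groups had 3 replicates, labelled as biological, which gave 36 libraries from 1 cell line. The comparison asks which of these receptor genes differed between IL-1β-treated and control cells while the cytokine was present and after it was removed.

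Toll-like receptors (TLRs) are membrane proteins that recognize microbial and damage-associated molecules. TLR1, TLR2, TLR4, TLR5 and TLR6 act mainly at the cell surface, where TLR2 pairs with TLR1 or TLR6 to bind lipoproteins, TLR5 binds flagellin and TLR4 binds lipopolysaccharide with the help of CD14 and LY96 (MD-2). TLR3 sits in endosomes and binds double-stranded RNA. The IL-1 receptor has the same kind of intracellular domain as the TLRs, and both use the adaptor MYD88 and IRAK kinases to activate NF-κB, with TLR3 signalling through the adaptor TICAM1 (TRIF) instead. Airway epithelial cells express several TLRs, and CD14 is best known from monocytes.

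The reads that fell on genes numbered 9116032 to 23570026 per library. In 11 of the 36 libraries, 11.8% to 24.6% of these counts lay on mitochondrial genes, compared with 5.61% to 7.75% in the other 25. The 11 libraries lay in both arms, with 6 controls and 5 treated libraries, but not evenly over the time points. At each of days 6 and 15 after withdrawal they were 2 of the 3 controls and 1 of the 3 treated libraries. Fits without them therefore had fewer controls than treated libraries at these times. Several results that rest on the 11 libraries are given with and without them. The epithelial keratin genes KRT8, at 536.9 to 4812 CPM (counts scaled to a library of 1000000 reads on genes), and KRT18, at 264.4 to 2511 CPM, and the E-cadherin gene CDH1, at 27.4 to 318.6 CPM, were expressed in every library. EPCAM had 4 to 32 counts and KRT19 0 to 4, so these 2 epithelial markers were low. Of 10 blood cell markers, FCGR3A and CD3E had 0 counts in all 36 libraries, PTPRC (CD45) and SPI1 had 0 to 3, CSF1R 0 to 14 and CD79A 0 to 12, and LYZ (2 to 22 counts) and CD163 (2 to 16) were detected in every library. In all, the summed level of the list lay between 5.08 and 15.8 CPM, most of which was ITGAM at 3.44 to 14.6 CPM.

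Per kilobase of exon, CD14 and TLR6 had the highest levels of the 8 genes. Their medians over the 36 libraries were 3.15 CPM per kb for CD14 (range 1.01 to 9.92) and 3.03 CPM per kb for TLR6 (range 1.85 to 5.14). TLR3 followed with a median of 0.652 CPM per kb (0.262 to 1.49) and TLR1 with 0.611 (0.297 to 1.06). LY96 had 0.0973, TLR5 0.0344, TLR4 0.0286 and TLR2 0.0102 CPM per kb at the median. The ranges of CD14 and TLR6 overlapped, as did those of TLR3 and TLR1 and those of the 4 lowest genes, so the order within these sets is not separated by the spread over libraries. In reads, TLR6 had 146 to 633 counts per library, CD14 13 to 237, TLR3 30 to 154 and TLR1 18 to 69, whereas TLR4 had 1 to 38. With this depth 5 of the 8 genes, TLR1, TLR3, TLR4, TLR6 and CD14, passed the filter on low counts, and TLR2, TLR5 and LY96 did not. TLR4 had 1 to 9 counts in control libraries and 3 to 38 in treated ones, so it passed only through treated libraries.

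**Figure D1:**
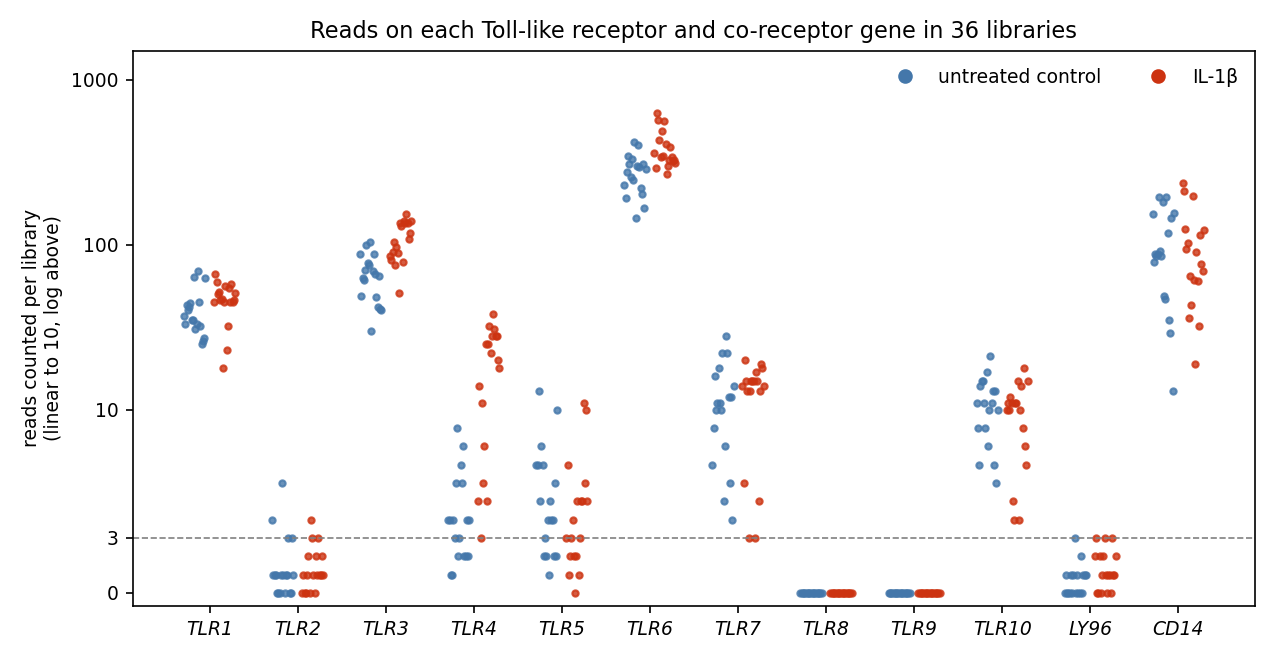
Reads counted on each of the 8 genes and on TLR7 to TLR10 in each library (points) for control and IL-1β-treated cells; the vertical axis is linear up to 10 counts and logarithmic above, and the dashed line marks 3 counts. TLR6 lies between 146 and 633 counts, TLR4 between 1 and 38, and LY96 between 0 and 3.

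TLR4 (ENSG00000136869, GRCh37 chr9:120466453-120487013, plus strand) encodes the lipopolysaccharide receptor. Its level was low in control cells throughout, at 0.0590 to 0.604 CPM over 18 libraries, and was higher in every IL-1β library after withdrawal, at 0.841 to 2.55 CPM over 9 libraries. At day 6 after withdrawal, the control replicates had 0.386, 0.604 and 0.257 CPM, and the IL-1β replicates 1.75, 2.55 and 1.62 CPM. At day 15, controls had 0.519, 0.204 and 0.203 CPM and IL-1β cells 2.43, 2.25 and 1.30 CPM. At day 30, controls had 0.215, 0.257 and 0.197 CPM and IL-1β cells 1.90, 1.30 and 0.841 CPM. The lowest treated library lay above the highest control at each of these 3 time points, and the IL-1β mean went from 1.97 ± 0.50 (SD, n = 3) at day 6 to 1.35 ± 0.53 CPM at day 30. The log2 fold changes were 2.28 (SE 0.58), 2.54 (SE 0.60) and 2.58 (SE 0.63) at days 6, 15 and 30 after withdrawal, that is 4.85-, 5.83- and 5.98-fold. In a bulk library, a change in the share of cells that express a gene and a change in RNA per cell cannot be told apart.

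**Figure D2:**
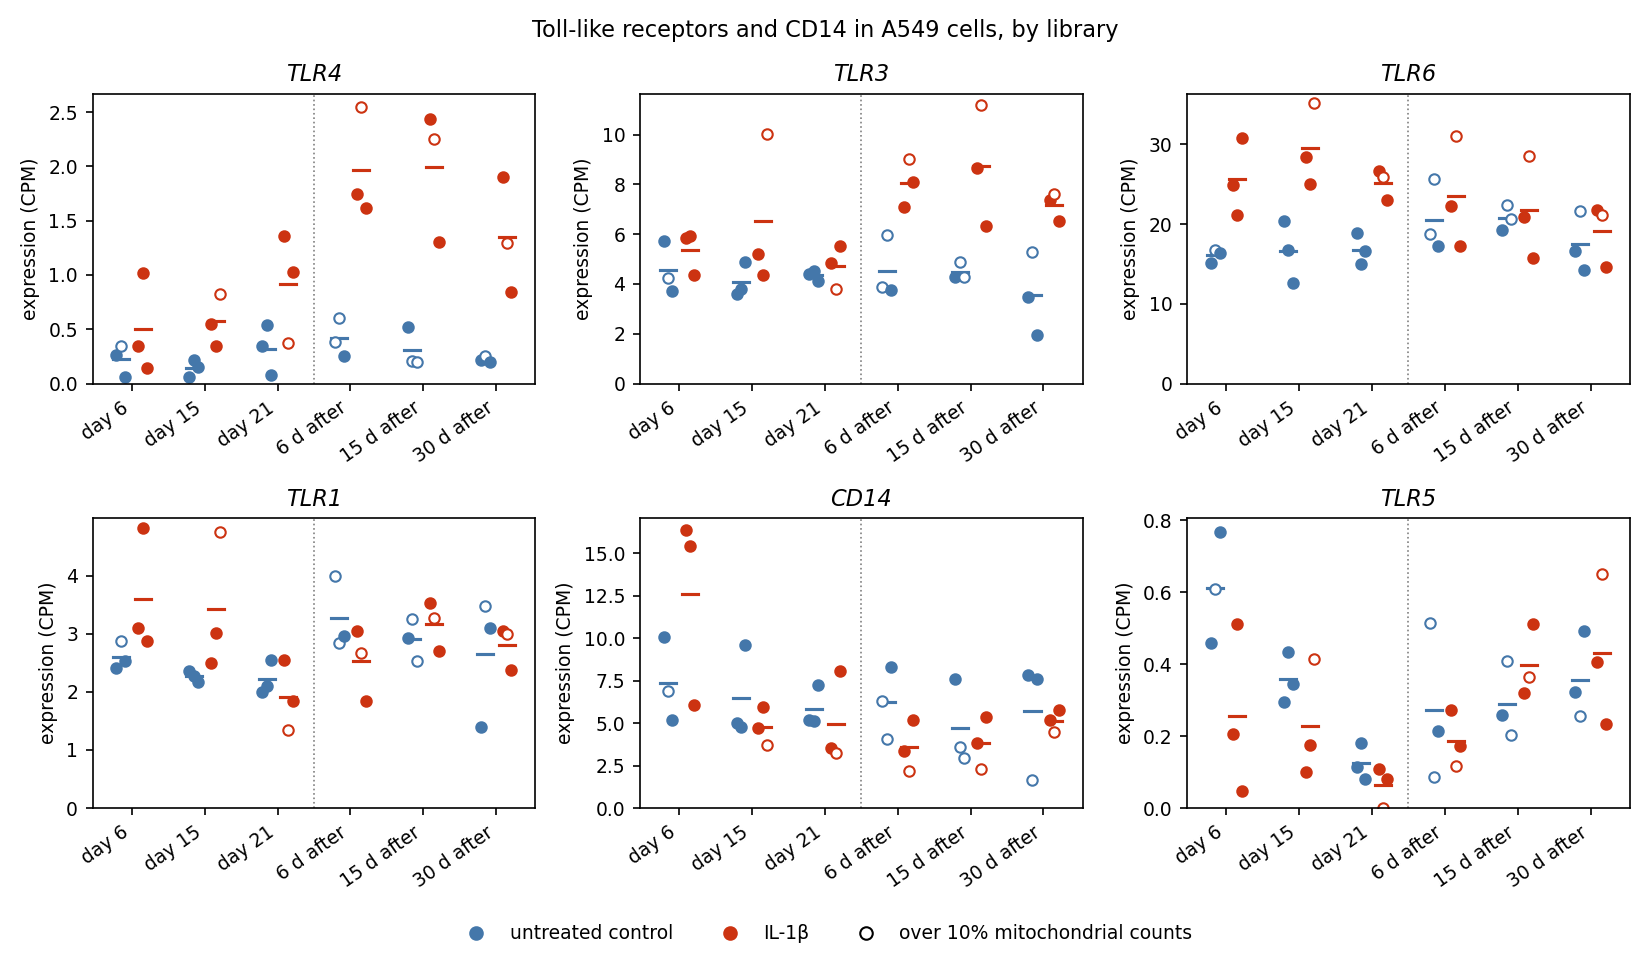
CPM of TLR1, TLR3, TLR4, TLR5, TLR6 and CD14 in each library (points, open where over 10% of counts were mitochondrial) with the group mean (line), by collection time, for control and IL-1β-treated cells; the dotted line marks withdrawal. After withdrawal the 9 TLR4 points of treated cells lie between 0.841 and 2.55 CPM, above all controls, and the treated and control points of CD14 overlap at every time point.

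While IL-1β was present, TLR4 values were higher on average but mixed. At day 6 of exposure, controls had 0.261, 0.348 and 0.0590 CPM and treated cells 0.345, 1.02 and 0.146 CPM, so the groups overlapped. At day 15, controls had 0.0591, 0.217 and 0.148 CPM and treated cells 0.550, 0.348 and 0.827 CPM, without overlap. At day 21, controls had 0.342, 0.542 and 0.0796 CPM and treated cells 1.36, 0.374 and 1.02 CPM. Only replicate 2 of the treated cells, 1 of the 11 libraries with a high mitochondrial share, fell within the control range at day 21. The log2 fold changes of TLR4 were 1.15 (SE 0.72), 1.88 (SE 0.72) and 1.63 (SE 0.58) at days 6, 15 and 21. The reads behind these values were few, with 1 to 9 counts in a control library (72 in all) and 3 to 38 in a treated one (347 in all). Expression of TLR4 in control cells at day 30 after withdrawal was close to that at day 6 of exposure, with a log2 difference of 0.04 (SE 0.81).

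Differential expression was defined by both thresholds, an adjusted p under 0.05 and a fold change over 2, in edgeR's quasi-likelihood test, with the Benjamini-Hochberg adjustment made over the 19180 genes tested. After withdrawal, TLR4 alone of the 5 members tested passed both, at day 6 (1.8% of all genes tested passed), day 15 (0.954%) and day 30 (0.897%). TLR4 was chosen for this course and passed the filter on low counts only through treated libraries. Its place past the thresholds therefore describes the choice and is not evidence for it. Its place past the thresholds was lost when any replicate number was left out at each of the 3 time points, when each time point was fitted alone and when the 11 libraries with a high mitochondrial share were left out. The log2 fold change then still lay between 1.81 and 3.05. At days 6 and 15 the fit without these 11 libraries had fewer control than treated libraries. At day 21 of IL-1β, TLR4 did not pass both thresholds, but it did with the replicate number as a block, at a log2 fold change of 1.72. It also passed there without replicate 2, at 2.58, and without the libraries with a high mitochondrial share, at 2.00.

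The summed level of the 6 epithelial markers, mostly KRT8 and KRT18, had a lower median in treated than in control cells at the same time points. It was 2898 to 6079 CPM in controls and 1084 to 2963 CPM in treated cells at day 6 after withdrawal, 3832 to 4865 against 1821 to 3437 CPM at day 15, without overlap, and 3611 to 7617 against 3072 to 5137 CPM at day 30. Its part in the TLR4 values was not tested. The summed level of the blood cell markers was 7.03 to 11.4 CPM in the controls and 8.35 to 12.2 CPM in the treated cells after withdrawal, with FCGR3A and CD3E at 0 in both.

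Genes whose differences between treated and control cells most resembled those of TLR4 were found by Pearson's r over the 18 pairs of libraries with the same replicate number and time point, among 17137 genes. Among the highest were ADI1 (r = 0.795), SLAMF7 (r = 0.778), TMEM255A (r = 0.758) and LINC02532 (r = 0.753). Sizes and directions differed between them. SLAMF7, which encodes a surface receptor of lymphocytes, had log2 fold changes of 1.94, 2.01 and 2.2 at days 6, 15 and 30 after withdrawal, whereas ADI1, a methionine salvage enzyme, had 0.38, 0.35 and 0.25. LINC02532 was lower in treated cells at all 6 time points, with log2 fold changes of -4.17, -3.37 and -3.81 during exposure and -1.17, -0.29 and -0.60 after withdrawal. The 18 pairs come from 1 cell line, and TLR4 was chosen for its course, so r is given as a description.

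The 250 bases upstream of the transcription start are shown for 4 of the members that could be tested. TLR4 and TLR3 both had all treated libraries above all controls at each time point after withdrawal. TLR6 had higher values during exposure, and the groups of CD14 overlapped. The sequences are those of RefSeq on GRCh38.p14, a later build than the GRCh37 of the counts, at chr9:117704153-117704402 (plus strand), chr4:38856818-38857067 (minus), chr5:140633176-140633425 (minus) and chr4:186068906-186069155 (plus), each written from 5′ to 3′ in the direction of the gene. Capitals mark matches on either strand to GAGGAAG, an ETS-family core that reads CTTCCTC on the other strand, and to TGANTCA, the AP-1 site.
TLR4: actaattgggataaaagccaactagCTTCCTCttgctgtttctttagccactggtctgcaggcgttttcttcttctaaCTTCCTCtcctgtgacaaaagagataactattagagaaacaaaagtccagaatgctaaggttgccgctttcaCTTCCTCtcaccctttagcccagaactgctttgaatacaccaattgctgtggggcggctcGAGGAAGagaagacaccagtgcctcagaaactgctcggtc
TLR6: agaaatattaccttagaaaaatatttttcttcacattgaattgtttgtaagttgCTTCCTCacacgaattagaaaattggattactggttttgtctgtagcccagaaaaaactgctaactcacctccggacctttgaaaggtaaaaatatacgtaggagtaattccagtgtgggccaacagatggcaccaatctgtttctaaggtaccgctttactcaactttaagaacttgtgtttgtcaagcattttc
CD14: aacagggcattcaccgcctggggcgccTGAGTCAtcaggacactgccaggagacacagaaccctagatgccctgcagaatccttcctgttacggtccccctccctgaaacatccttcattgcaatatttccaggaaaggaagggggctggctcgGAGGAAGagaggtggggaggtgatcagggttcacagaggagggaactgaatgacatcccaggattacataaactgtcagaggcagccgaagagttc
TLR3: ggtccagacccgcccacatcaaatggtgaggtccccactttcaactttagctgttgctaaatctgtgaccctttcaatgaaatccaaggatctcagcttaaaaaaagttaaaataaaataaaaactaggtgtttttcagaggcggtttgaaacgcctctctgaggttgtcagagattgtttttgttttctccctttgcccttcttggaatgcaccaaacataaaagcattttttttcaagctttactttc
The TLR4 sequence held 4 matches to GAGGAAG, at positions -225 to -219, -172 to -166, -100 to -94 and -40 to -34 from the start. Of 35116 promoters of this length, 11.2% held at least 1 match and 5 (0.0142%) held 4 or more. The cut of 4 was the number found in TLR4 itself, so this share is a description. TLR6 and CD14 each held 1 match, and CD14 also held 1 match to TGANTCA, which 6.57% of all promoters held. No match to either pattern was found in TLR3, which was also higher in treated cells after withdrawal. The NF-κB motif, held by 9.96% of promoters, and the interferon-stimulated response element, held by 3.02%, were found in 0 of the 6 members searched. These were the 4 genes shown, TLR2 and TLR5, and neither TLR1 nor LY96 was searched. Only exact matches to 1 pattern for each motif were counted, so sites that differ from it by a base were left out. A match describes the letters in this window and not the binding of a factor.

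TLR3 (ENSG00000164342, GRCh37 chr4:186990065-187009227, plus strand), the receptor for double-stranded RNA, had 1.97 to 5.95 CPM in control cells. During exposure its treated and control groups overlapped at all 3 time points. The log2 fold changes were 0.23 (SE 0.29, adjusted p = 0.942) at day 6, 0.65 (SE 0.29, adjusted p = 0.235) at day 15 and 0.13 (SE 0.29, adjusted p = 1) at day 21 in edgeR's quasi-likelihood test. The highest treated value at day 15, 10.0 CPM in replicate 3, came from a library with a high mitochondrial share, and without such libraries the log2 fold change of that day was 0.22 (adjusted p = 0.652). After withdrawal, controls had 3.86, 5.95 and 3.78 CPM and treated cells 7.09, 9.03 and 8.10 CPM at day 6. At day 15 controls had 4.28, 4.89 and 4.26 CPM and treated cells 8.65, 11.2 and 6.33 CPM. At day 30 controls had 3.49, 5.27 and 1.97 CPM and treated cells 7.39, 7.60 and 6.54 CPM. All treated libraries lay above all controls at each of these time points, with log2 fold changes of 0.83 (SE 0.29), 0.96 (SE 0.29) and 1.05 (SE 0.30). Of all genes tested, 5.51%, 6.02% and 6.78% had 3 treated libraries above 3 controls at days 6, 15 and 30 after withdrawal, as TLR3 and TLR4 did. Over the 12 alternatives the log2 fold change of TLR3 at day 30 was between 0.78 and 1.36, and it passed both thresholds in 4 of them.

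TLR6 (ENSG00000174130, GRCh37 chr4:38824518-38858438, minus strand), a partner of TLR2, was the member with the most reads, and its values were higher with IL-1β during exposure. At day 6 of IL-1β, controls had 15.1, 16.8 and 16.4 CPM and treated cells 24.9, 21.2 and 30.8 CPM. At day 15, controls had 20.4, 16.8 and 12.7 CPM and treated cells 28.4, 25.0 and 35.2 CPM. At day 21, controls had 18.8, 14.9 and 16.6 CPM and treated cells 26.6, 25.9 and 23.0 CPM. The groups did not overlap at any time point of exposure, which 10.6%, 11.5% and 13.8% of all genes tested shared in this direction at days 6, 15 and 21. TLR6 rose at day 15, by a log2 fold change of 0.83 (SE 0.23, 1.78-fold, adjusted p = 0.0248 in edgeR's quasi-likelihood test), which is under the fold threshold. At days 6 and 21 the log2 fold changes were 0.68 (SE 0.23, adjusted p = 0.113) and 0.58 (SE 0.23, adjusted p = 0.174). The adjusted p at day 15 ranged from 0.00894 to 0.404 over the alternatives, with 0.404 without replicate 3, 0.235 without replicate 1 and 0.169 in the fit of that time point alone. Treated replicate 3 at day 15 has a high mitochondrial share, and without all such libraries the log2 fold change was 0.69 (adjusted p = 0.0279). At day 6 the adjusted p was 0.00463 with the mitochondrial share as a covariate, 0.0333 without these libraries, 0.0175 with total counts only and 0.0413 in the fit of that time point alone, and at day 21 it was 0.00963 in such a fit. After withdrawal, the groups overlapped and the log2 fold changes were 0.19 (SE 0.23), 0.06 (SE 0.23) and 0.14 (SE 0.23). The control libraries with a high mitochondrial share had 16.8 to 25.7 CPM of TLR6 (n = 6), compared with 12.7 to 20.4 CPM in the other 12.

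TLR1 (ENSG00000174125, GRCh37 chr4:38792298-38858438, minus strand), the other partner of TLR2, overlaps TLR6 on the same strand and shares exon sequence with it. The exon overlap covers 1.26% of the exon length of TLR1 and 0.832% of that of TLR6. Of the 50-base stretches of TLR1, 5.33% also occur in TLR6, so a part of the reads of both genes cannot be assigned with certainty. TLR1 was higher in all 3 treated libraries at day 6, with 3.10, 4.82 and 2.87 CPM against 2.42, 2.87 and 2.54 CPM in controls. It was also higher at day 15, with 2.5, 3.02 and 4.75 against 2.36, 2.27 and 2.17 CPM. Neither difference passed the test, with log2 fold changes of 0.46 (SE 0.28, adjusted p = 0.647) and 0.57 (SE 0.28, adjusted p = 0.306) in edgeR's quasi-likelihood test. Replicate 3 of the treated cells at day 15 has a high mitochondrial share, and without such libraries the log2 fold change of TLR1 on that day was 0.28 (adjusted p = 0.658). At day 21 the groups overlapped, with a log2 fold change of -0.21 (SE 0.29, adjusted p = 0.996), and after withdrawal they overlapped at log2 fold changes of -0.36, 0.12 and 0.11.

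CD14 (ENSG00000170458, GRCh37 chr5:140011313-140013285, minus strand), which hands lipopolysaccharide to the TLR4 complex, differed widely between replicates, and its groups overlapped at all 6 time points. At day 6 of IL-1β, controls had 10.1, 6.86 and 5.19 CPM and treated cells 16.3, 15.4 and 6.08 CPM, with a log2 fold change of 0.77 (SE 0.47, adjusted p = 0.636 in edgeR's quasi-likelihood test). At day 15 the log2 fold change was -0.43 (SE 0.48, adjusted p = 0.667) and at day 21 -0.23 (SE 0.47, adjusted p = 1). After withdrawal it was -0.79 (SE 0.49), -0.30 (SE 0.49) and -0.19 (SE 0.47). Controls with a high mitochondrial share had 1.67 to 6.86 CPM of CD14 (n = 6) and the other controls 4.76 to 10.1 CPM (n = 12). Leaving out all libraries with a high mitochondrial share gave CD14 log2 fold changes of 0.02 at day 21 of IL-1β, and -0.95 when IL-1β had been withdrawn for 6 days.

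**Figure D3:**
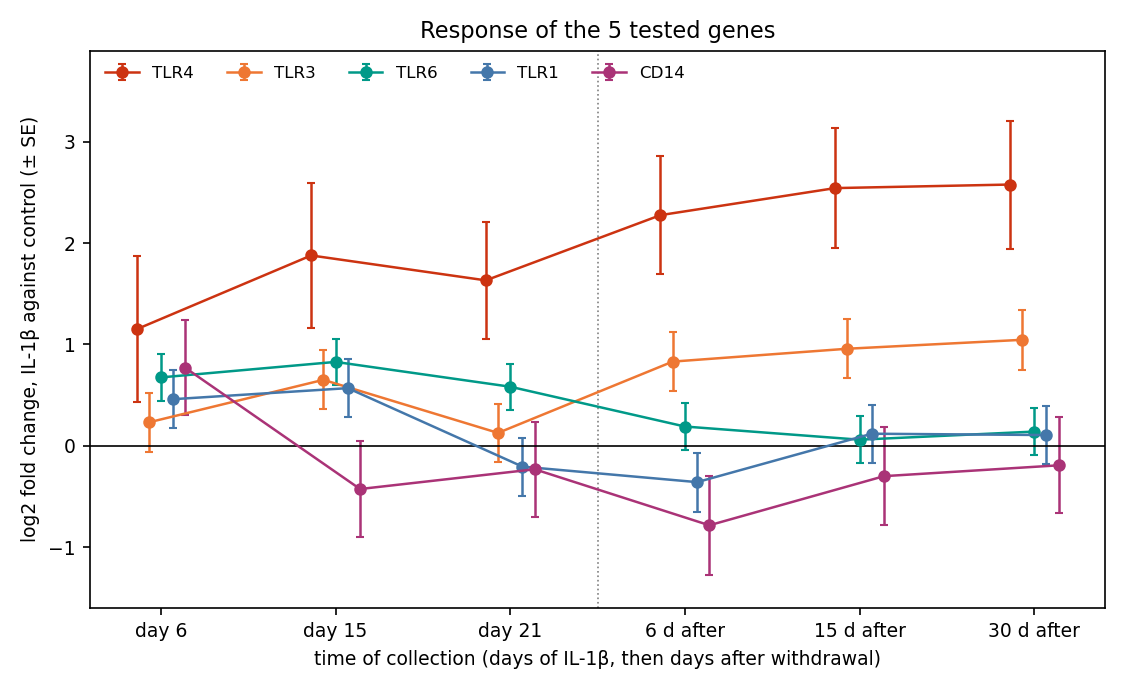
Log2 fold change of IL-1β-treated over control cells (vertical axis, bars are SE) for the 5 members tested at each collection time, with withdrawal at the dotted line. TLR4 lies at 2.28 to 2.58 and TLR3 at 0.83 to 1.05 after withdrawal, and TLR6 lies at 0.58 to 0.83 during exposure and at 0.06 to 0.19 after it.

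Apart from TLR4, 4 members could be tested during exposure, and 0 of them passed both thresholds in edgeR's quasi-likelihood test at day 6 (2.77% of all genes tested passed), day 15 (4.24%) or day 21 (4.26%). At an unadjusted p under 0.05 there was 1 at day 6 (TLR6), 2 at day 15 (TLR3 and TLR6) and 1 at day 21 (TLR6), and DESeq2's Wald test put 0 past both thresholds at each. The response at day 21 was also compared with that at day 6. The differences of the log2 fold changes were -1.0 (SE 0.66) for CD14, -0.67 (SE 0.40) for TLR1, -0.10 (SE 0.41) for TLR3 and -0.09 (SE 0.32) for TLR6, each with an adjusted p of 1, and 0.48 (SE 0.98) for TLR4 as a description, which was between -0.19 and 2.02 with 1 replicate number left out. Across all genes, 0.0104% passed both thresholds in this comparison. To see how long culture alone bore on the genes, controls of day 30 after withdrawal were compared with controls of day 6. The log2 differences were between -0.40 and 0.11 in the 4 genes, again with an adjusted p of 1, where 0.0104% of all genes passed. In both of these comparisons 0 of the 4 had an unadjusted p under 0.05, and DESeq2 put 0 past both thresholds.

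TLR2, LY96 and TLR5 did not pass the filter on low counts. When no filter was applied, their log2 fold changes during exposure had adjusted p of 0.574 to 1 in edgeR's quasi-likelihood test. TLR5 also passed the filter without the libraries of high mitochondrial share, with its lowest adjusted p of 0.176 at day 6, and without replicate 1. TLR2 (ENSG00000137462, GRCh37 chr4:154605222-154627412, plus strand), the lipoprotein receptor, had 0 to 6 counts per library, with 24 in all control and 23 in all treated libraries. LY96 (ENSG00000154589, GRCh37 chr8:74903627-74941314, plus strand), the co-receptor that binds lipopolysaccharide beside TLR4, had 0 to 3 counts, with 12 in all control and 23 in all treated libraries. At the 3 time points after withdrawal, where TLR4 was higher, treated cells had 0 to 3 counts of LY96 in each library. A difference in either gene was not detectable at this depth. TLR5 (ENSG00000187554, GRCh37 chr1:223282746-223316590, minus strand), the flagellin receptor, had 0 to 13 counts. At day 6 of IL-1β it had 7, 7 and 13 counts in controls and 3, 7 and 1 in treated cells, and at day 30 after withdrawal 6, 2 and 10 against 6, 10 and 5. The TLR5 groups thus met or overlapped in counts at both times.

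The remaining TLRs were low as well. TLR7, an endosomal receptor of single-stranded RNA, had 0.310 to 1.43 CPM, and TLR10, a neighbour of TLR1 and TLR6 on chromosome 4, had 0.217 to 1.32 CPM. Neither passed both thresholds at any of the 6 time points. TLR8 had 0 counts in all 36 libraries, which allows up to 3 counts in each, or 0.127 to 0.329 CPM of unscaled counts. TLR9 was also listed at 0, but 99.7% of its exon sequence lies under another gene on the same strand that is listed at 0 too, so reads there are ambiguous in the counting and no level can be read.

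The wider pathway was described with a list of 50 genes, of which 38 passed the filter on low counts. During exposure, 4 of these 38 passed both thresholds in edgeR's quasi-likelihood test at each of days 6, 15 and 21, all higher with IL-1β, and 0 were lower, where 2.77%, 4.24% and 4.26% of all genes tested passed in either direction. They were the same 4 genes at each time. The median log2 fold change of the 38 was 0.11, 0.10 and 0.04, where that of all genes tested was -0.02, -0.02 and -0.01. After withdrawal, 2, 1 and 2 of the 38 passed at days 6, 15 and 30, where 1.8%, 0.954% and 0.897% of all genes did. The medians of the 38 were 0.07, 0.05 and 0.15, and those of all genes tested -0.001, 0.023 and -0.004.

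By role, the 4 adaptors tested (MYD88, TIRAP, TICAM1 and SARM1) had log2 fold changes between -0.88 (SARM1, day 15) and 0.60 (TICAM1, day 21), and 0 had an adjusted p under 0.05 at any time, the lowest being 0.432. Exons of SARM1 overlap other genes on the same strand over 21.9% of their length. Of the 13 kinases and ligases, IRAK2, a kinase shared by the IL-1 receptor and TLRs, rose during exposure by log2 fold changes of 2.98 (SE 0.25), 2.19 (SE 0.25) and 2.03 (SE 0.24), with adjusted p of 4.91e-09, 4.42e-07 and 1.12e-06 in edgeR's quasi-likelihood test. After withdrawal its values were 0.69, 0.90 and 0.54 and did not pass.

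Among the 4 inhibitors tested, TNFAIP3 (A20), a ubiquitin-editing enzyme that restrains NF-κB signalling, rose by 4.05 (SE 0.23), 3.15 (SE 0.22) and 3.21 (SE 0.22) on the log2 scale at days 6, 15 and 21. It was also past both thresholds at day 6 (1.27, SE 0.21, adjusted p = 0.00047) and day 30 after withdrawal (1.09, SE 0.21, adjusted p = 0.00503), and at 0.92 (SE 0.21, adjusted p = 0.0202) at day 15. NFKBIA, the inhibitor that holds NF-κB in the cytoplasm, rose by 2.17 (SE 0.20), 1.5 (SE 0.20) and 1.89 (SE 0.20) during exposure, and its values after withdrawal were 0.75, 0.49 and 0.82, under the fold threshold. TOLLIP and SIGIRR passed at none of the 6 time points.

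Of the 3 endogenous ligands tested, TNC, which encodes the matrix protein tenascin-C and can activate TLR4, was past both thresholds at each of the 6 time points, with log2 fold changes of 3.74 (SE 0.54), 4.16 (SE 0.51) and 4.42 (SE 0.51) during exposure and 3.19 (SE 0.51, adjusted p = 0.000289), 2.05 (SE 0.50, adjusted p = 0.0297) and 2.60 (SE 0.58, adjusted p = 0.0173) at days 6, 15 and 30 after withdrawal in edgeR's quasi-likelihood test. Without replicate 1, TNC did not pass at any time point after withdrawal, and without replicate 2 it did not pass at days 15 and 30, with log2 fold changes of 1.89 to 3.34 in these fits. TNFAIP3 likewise did not pass at days 6 and 30 after withdrawal without replicate 1 or without replicate 2. Fits of each time point alone put neither gene past both thresholds after withdrawal. Without the libraries of high mitochondrial share, the log2 fold change of TNC at day 15 after withdrawal was 1.30. In the same fit TNFAIP3 did not pass at day 30, at 1.025. The 5 transcription factors and 6 trafficking genes had 0 past both thresholds at every time point. NFKB1, which encodes a subunit of NF-κB, rose by less than the fold threshold during exposure, with log2 fold changes of 0.85 (SE 0.11, adjusted p = 9.04e-06), 0.73 (SE 0.11, adjusted p = 5.63e-05) and 0.68 (SE 0.11, adjusted p = 0.000151). Of the 4 other co-receptors, LBP, which carries lipopolysaccharide to CD14, was the 1 gene tested. Its log2 fold changes were between -0.97 and 1.16 during exposure and 0.55 (SE 0.72), 1.48 (SE 0.66) and 1.93 (SE 0.63) after withdrawal, with an adjusted p of 0.174 at day 30. There LBP was past both thresholds without replicate 3 (adjusted p = 0.0196) and with the mitochondrial share as a covariate (0.0333), and over all alternatives its adjusted p was between 0.0196 and 0.899.

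**Figure D4:**
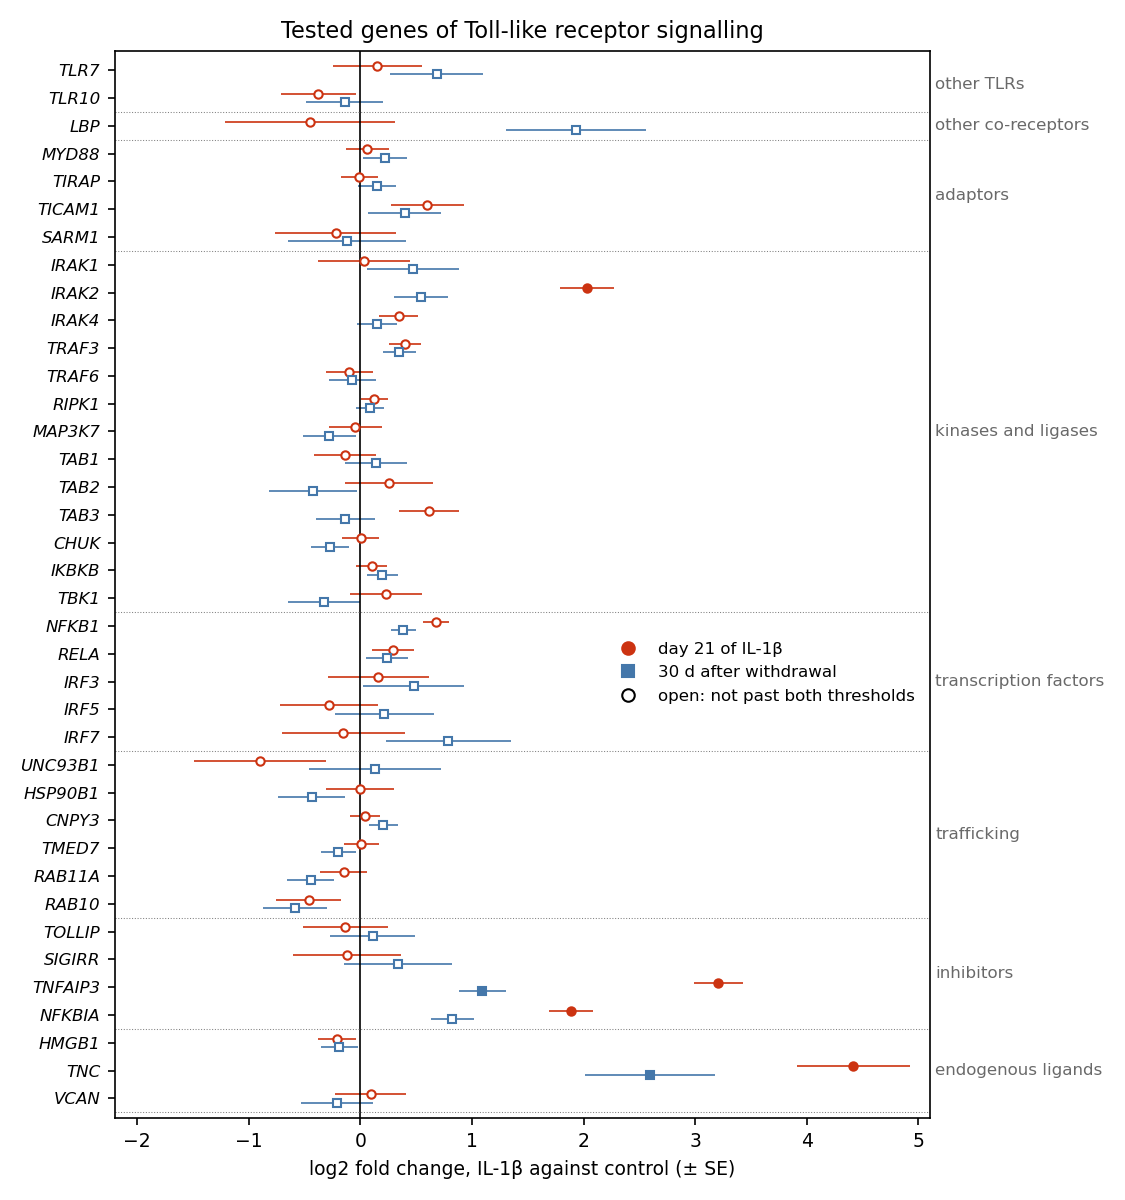
Log2 fold change of IL-1β-treated over control cells (horizontal axis, bars are SE) for the 38 tested genes of Toll-like receptor signalling at day 21 of IL-1β and 30 days after withdrawal, grouped by role; filled symbols passed both thresholds. IRAK2, TNFAIP3, NFKBIA and TNC are filled at day 21, and TNFAIP3 and TNC at 30 days after withdrawal.

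Of the 12 pathway genes that were not tested, the adaptor TICAM2 lies under another gene on the same strand over 78.7% of its exon length, and IKBKG and IKBKE were listed at 0 under the identifiers matched. No level is given for these 3 genes, because reads may have been assigned to other identifiers.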

How the data were processed

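The deposited values are counts of reads per Ensembl gene, which the authors made from single-end HiSeq reads of stranded mRNA libraries and did not normalize. Per the submitters' processing notes, bcl2fastq 2.17, TopHat2 2.0.14, Bowtie2 2.2.5, HTSeq 0.6.1 and GRCh37 were used. The strand setting and annotation release are not given in the sources used here. Library sizes left out reads outside genes (8.48% to 18.6%) and ambiguous reads (2.62% to 4.18%).

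Symbols, GRCh37 positions and exon lengths were taken from GENCODE v44lift37 for 55665 of 63677 identifiers. Genes kept by edgeR's filterByExpr (19180 of the 39471 with any count) were scaled by TMM. The quasi-likelihood model of edgeR had 12 group terms over 36 libraries (24 residual degrees of freedom). Each SE of a log2 fold change is its absolute value divided by the square root of the F statistic of this model. CPM use the same scaling, with a prior count of 2 on the log2 scale. Adjusted p are Benjamini-Hochberg values over all genes tested. The study's methods name edgeR and both thresholds but not the test. R 4.3.3, edgeR 4.0.16, limma 3.58.1, DESeq2 1.42.0, Python 3.11.15, numpy 2.4.6, pandas 2.3.3 and matplotlib 3.10.9 were used, and the model was tested on simulated data.

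All 8 members and TLR7 to TLR10 were named whatever their values. Pathway genes were named, up to 4 for each role, if past both thresholds at any time, as were the adaptors, markers and the 5 genes most like TLR4, of which 1 gene, and 1 marker, are not reported here. NFKB1, LBP, TOLLIP, SIGIRR, TICAM2, IKBKG and IKBKE were named after their values were seen. The members, lists, comparisons and tests were chosen with earlier results of these data known.

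The labels number the replicates 1 to 3 in each group. Same-numbered treated and control libraries deviated together with a correlation over 0.1 in 14 of 18 pairs, and in every pair at day 21 of IL-1β and day 30 after withdrawal. The fit with the replicate number as a block is therefore an alternative. The others were scaling by DESeq2's size factors or by total counts, no filter, at least 10 counts in every library, DESeq2's Wald test, a separate fit of each time point, leaving out each replicate number, and the mitochondrial share over 10% as a covariate or as a reason to leave a library out. A count of 0 was taken to allow up to 3 counts, which covers counting error only.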

Additional observations from a re-analysis of the deposited data

Results flagged for a closer look

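For 2 of the 5 members tested, all same-numbered pairs pointed the same way at some time point and the opposite way at another. The share of all genes that do so was not computed. This count is therefore a description and does not set the members apart. TLR1 was higher with IL-1β in all 3 pairs at days 6 and 15 of exposure (log2 fold changes of 0.46 and 0.57). It was also higher in all 3 pairs at day 15 after withdrawal (0.12), where replicate 2 differed by 0.004 on the log2 scale. At day 6 after withdrawal it was lower in all 3 pairs (-0.36). CD14 was higher in all 3 pairs at day 6 of exposure (0.77) and lower in all 3 pairs at day 6 after withdrawal (-0.79). The differences between these time points were not tested.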

How the results depend on the processing

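Over 12 alternatives, 879 log2 fold changes were recomputed for the 5 members tested and 6 pathway genes. Of these, 31 lost a place past both thresholds (15 of them TLR4 after withdrawal), 12 gained one and 24 changed sign. Counts of genes past both thresholds were equal or within 1.5 times in 126 of 166 cases, with 31 lower and 9 higher. The 126 include many cases with 0 genes in both fits, which had no place to lose. The cause of the changes was not tested, except that TLR4, TNC and LBP could not be fitted where at least 10 counts were required in every library. In the separate fits of days 6, 15 and 21 of IL-1β, TLR4 did not pass the filter and was not fitted. The number of members past both thresholds at day 21 of IL-1β was 1 (TLR4) with the replicate block, 1 without the 11 high mitochondrial libraries, and 0 to 1 when 1 replicate number was left out, with 1 without replicate 2. After withdrawal it was 0 at days 6, 15 and 30 with at least 10 counts, in separate fits and without replicate 1, 2 or 3, and 0 at days 6 and 15 without the high mitochondrial libraries. It was 2 (TLR4 and TLR3) at days 15 and 30 with total counts only and with the mitochondrial share as a covariate, and 2 at day 30 with DESeq2's Wald test. Without the high mitochondrial libraries at day 30, 1 member passed, and it was TLR3. The number of pathway genes past both thresholds after withdrawal with at least 10 counts, where TNC was not fitted, was 1, 0 and 1 at days 6, 15 and 30. It was 0 at all 3 in separate fits, 2 at day 15 with total counts only, and 0 at day 15 and 1 at day 30 without the high mitochondrial libraries. It was 0 to 2 at day 6, 0 to 1 at day 15 and 0 to 3 at day 30 when 1 replicate number was left out, the 3 being TNC, TNFAIP3 and LBP without replicate 3. The replicate block changed no other call of a member or count of pathway genes by over 1.5 times.

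The 24 values that changed sign were at most 0.363 in size afterwards, and 0 of them were past both thresholds in either fit. Between controls of day 30 after withdrawal and day 6, TLR1 (-0.001) was 0.022 with DESeq2's size factors, 0.001 without a filter, 0.007 with at least 10 counts, 0.002 with DESeq2's Wald test and -0.17 to 0.291 with 1 replicate number left out, positive without replicate 1. TLR6 was -0.022 to 0.277 with 1 left out (negative without replicate 2) and -0.026 without the high mitochondrial libraries, and CD14 was -0.758 to 0.032 (positive without replicate 2) and 0.033. TLR3 was -0.037 to 0.288 at day 21 (negative without replicate 3), and its response at day 21 against day 6 was -0.289 to 0.166 (positive without replicate 2) and 0.077 without the high mitochondrial libraries. That of TLR6 was -0.35 to 0.082 (positive without replicate 3). CD14 was -0.766 to 0.125 at day 15 (positive without replicate 3) and 0.016 at day 21 without the high mitochondrial libraries. After withdrawal, without replicate 1, CD14 was 0.231 at day 15 and 0.082 at day 30, TLR1 -0.305 and TLR6 -0.016 at day 30. TLR6 at day 15 was -0.156 without replicate 2 and -0.071 without the high mitochondrial libraries. The TLR4 response at day 21 against day 6 was -0.189 without replicate 1 and -0.154 without replicate 3, and its control difference -0.363 without replicate 3. With 1 to 38 counts per library, depth limits TLR4, which had the fewest reads of the 5 members tested.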
